A study of Mus musculus with 16 samples.

Results

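A set of 9 forebrain regional homeobox genes was followed through the conversion of mouse fibroblasts to neural stem-like cells: Otx1, Otx2, Lhx2, Emx1, Emx2, Six3, Dlx1, Dlx2 and Nkx2-1. They are the 9 genes with these symbols among the 37991 genes of the deposited raw count table, and each had 1 entry there. RNA sequencing of 16 mouse libraries covered 7 groups. The D4, D8 and D12 groups (3 libraries each) are mouse embryonic fibroblasts kept for 4, 8 or 12 days in M9 medium. M9 combines bFGF with the compounds CHIR99021, LDN193189, A83-01, Hh-Ag1.5, retinoic acid, SMER28, RG108 and Parnate, under lowered oxygen. The ciNSLC group (3 libraries) holds the reprogrammed neural stem-like cells. The starting fibroblasts, tdMEFs (D0, 2 libraries), were traced by Fsp1-Cre and a ROSA26tdTomato reporter, so they were marked through the Fsp1 promoter. All of these are on a 129xC57BL6 background. Each cortical control had a single library. SCR029 is a C57BL6 neural stem cell line from embryonic cortex (E15-18, Millipore), and priNPC holds primary cortical progenitors from E13.5 embryos (129xC57BL6). The labels do not say whether libraries of a group came from separate cultures or whether the ciNSLC libraries are separate lines or clones, so p-values measure the spread between libraries, which may be technical.

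Homeobox genes encode transcription factors that bind DNA through a homeodomain and give regions of the embryo their identity. In the developing forebrain, Otx genes mark the anterior neural tissue, and Lhx2 and the Emx genes act in the dorsal telencephalon that becomes cortex. Six3 acts at the anterior end and in the eye field, the Dlx genes act in the ventral telencephalon that makes GABAergic interneurons, and Nkx2-1 marks the ventral-most telencephalon and hypothalamus.

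Libraries held 29.4 to 55.5 M counts (M, mega), and 2 mitochondrial rRNA genes took 14.3% to 53% of them. Their share was 44.3% to 53% in ciNSLCs, 47.4% in SCR029 and 32% in priNPC, against 14.3% and 22.6% in D0. At D4, D8 and D12 it was 16.5% to 52.7%, highest in the batch 1 library of each time. Its part in the results was not tested. Levels below are CPM, counts scaled to a common library total, after edgeR's TMM scaling of the libraries. The summed level of 9 neural stem cell markers was 3807 to 4966 CPM in ciNSLCs, 3806 in SCR029 and 3437 in priNPC, against 47.0 to 63.8 in D0. The 9 fibroblast markers summed to 51.6 to 231 CPM in ciNSLCs, 78.8 in SCR029 and 93.1 in priNPC, against 20420 to 22240 in D0. The sample descriptions give 2 batches: 6 libraries are in batch 1 (replicate 1 of each group, and SCR029) and 10 in batch 2, priNPC among them. The D0 libraries stood apart from each other in 7 myeloid markers, which summed to 10.7 and 3128 CPM. The sum was 205 to 219 CPM at D4, 18.4 to 84.0 at D8, 9.58 to 13.6 at D12 and 2.27 to 2.58 in ciNSLCs. The part of these cells in the results that use D0 was not tested. In bulk RNA, fewer cells of a type and less RNA per cell cannot be told apart.

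The upstream sequences of Lhx2 and Otx2 are shown because these genes gave the most unlike patterns: in ciNSLCs Lhx2 stood at the priNPC level and Otx2 near 0. Each is the stretch of 250 bases before an annotated gene start (RefSeq, GRCm38.p6, read on the gene's strand), and neither contains an annotated exon. The Lhx2 window is chr2:38339031-38339280 on the plus strand, and the Otx2 window is chr14:48667645-48667894 on the minus strand. Capitals mark a match to TAATTA, a core read by many homeodomains.
Lhx2: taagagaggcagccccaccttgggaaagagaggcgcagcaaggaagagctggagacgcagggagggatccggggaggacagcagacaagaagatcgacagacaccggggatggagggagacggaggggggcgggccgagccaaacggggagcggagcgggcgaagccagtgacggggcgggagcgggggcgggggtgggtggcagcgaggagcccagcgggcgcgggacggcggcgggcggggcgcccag
Otx2: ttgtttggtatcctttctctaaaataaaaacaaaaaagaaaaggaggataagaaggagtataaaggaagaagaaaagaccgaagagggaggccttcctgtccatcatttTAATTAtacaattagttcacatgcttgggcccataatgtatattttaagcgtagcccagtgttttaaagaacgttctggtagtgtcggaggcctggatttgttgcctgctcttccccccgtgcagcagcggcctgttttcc
The Lhx2 window had 25 CpG dinucleotides and 72.8% G+C. The Otx2 window had 6 CpG dinucleotides and 42.0% G+C, against medians of 6 and 52.4% over all 32851 windows of this length. Both genes have further annotated starts, whose windows contain annotated exons. The further Otx2 windows had 8, 14 and 9 CpG dinucleotides and 48.4% to 53.6% G+C. The further Lhx2 window had 24 and 68.4%. Fewer CpG dinucleotides than in the Lhx2 window were found in 89.3% of all windows. In all windows 4 motifs were searched on both strands. TAATTA occurred in 4.84% of all windows, and the Otx and bicoid site TAATCC in 6.25%. The Tcf/Lef site CTTTGA occurred in 13.8%, and the nuclear receptor half-site AGGTCA in 14%. The printed Lhx2 window held none of them and the printed Otx2 window held 1, a TAATTA. Among 12 windows listed for 8 of the 9 genes, 2 held TAATTA, 1 held TAATCC, none held CTTTGA and 1 held AGGTCA. All windows with TAATTA or TAATCC were Otx2 windows.

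Of the 9 genes, Lhx2 was the one that was high in ciNSLCs, where the priNPC level lay within the ciNSLC range, while Otx1 and Otx2 were high in the cortical controls and low in ciNSLCs. Emx2 was higher in D0 than at any later time point, and Emx1 was practically undetected in all libraries. Six3, Dlx1, Dlx2 and Nkx2-1 stayed below 4 CPM throughout. Changes were tested by edgeR's quasi-likelihood method, with p adjusted over all genes after Benjamini and Hochberg, and a gene was called at an adjusted p under 0.05. The SE printed with a log2 change was derived as its absolute value divided by the square root of the test's F statistic. The fit to the 14 libraries without controls tested 6 of the 9 genes, since Otx2, Emx1 and Nkx2-1 fell under the filter on low counts. The fit to all 16 libraries, in which SCR029 and priNPC form 1 control group, tested 7 of the 9. It added Otx2, which passed the filter only through the controls and so had to differ from the other groups there. For Otx2 levels and ratios are therefore given as a description, with no test, and it is left out of the counts of called genes.

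**Figure D1:**
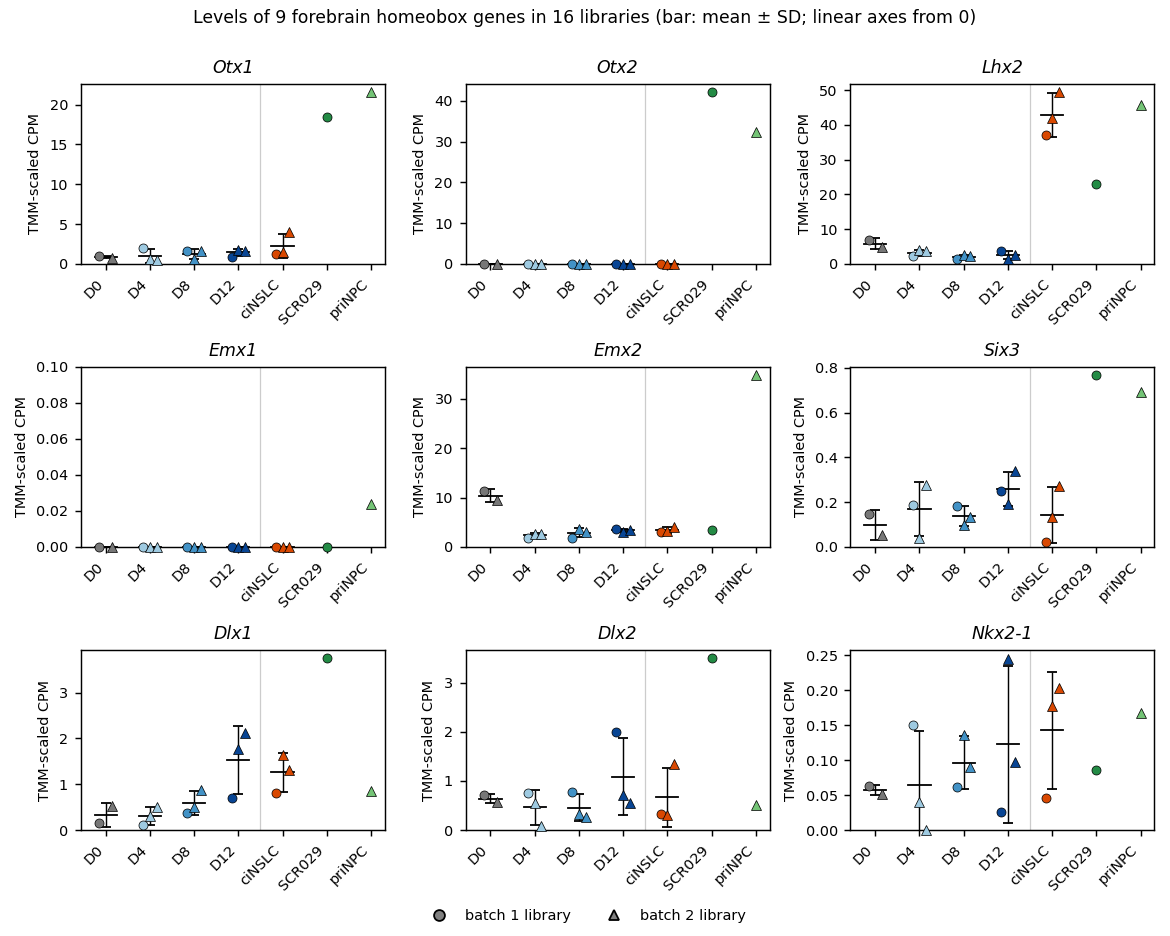
TMM-scaled CPM (vertical axes, linear from 0, each gene on its own scale) of the 9 genes in 16 libraries by group (horizontal axes). Points are libraries, circles batch 1 and triangles batch 2, and bars give the mean ± SD of groups with more than 1 library. Lhx2 lies at 37.0 to 49.4 CPM in ciNSLCs, against 4.82 to 6.91 in D0, and Otx2 stands above 0.06 CPM in SCR029 and priNPC alone.

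Lhx2 (ENSMUSG00000000247, mm9 chr2:38194801-38225253, plus strand) encodes a LIM-homeodomain factor needed for cortical identity. It had 37.0, 42.1 and 49.4 CPM in the ciNSLC libraries. The controls had 23.0 CPM (SCR029) and 45.8 CPM (priNPC). Along the time course it had 6.91 and 4.82 CPM at D0, 2.15, 3.90 and 3.58 at D4, 1.48, 2.50 and 2.26 at D8, and 3.82, 1.33 and 2.43 at D12. Every ciNSLC and control library was above every library of the time course, and all D4, D8 and D12 libraries were below both D0 libraries.

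Lhx2 was higher in ciNSLCs than in D12 by 4.08 on the log2 scale (SE 0.40, adjusted p = 1.95e-05, edgeR). It was the 1 of 6 tested genes called in that comparison, in which 27.5% of all tested genes were called, 11% higher and 16.5% lower. Against D0, Lhx2 was higher in ciNSLCs by 2.87 (SE 0.45, adjusted p = 0.000426, edgeR). Within batch 1 that difference was 2.41, and within batch 2 it was 3.23, as log2 ratios of levels after adding 0.05 CPM. In all, 2 of the 6 tested genes were called between ciNSLCs and D0, Lhx2 higher and Emx2 lower, against a background of 28.2% called, 11.7% higher and 16.5% lower. Lhx2 was also higher in the controls than in D0, by 2.55 (SE 0.49, adjusted p = 0.00198, edgeR).

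During the days in M9 the Lhx2 change relative to D0 passed the test at D8 alone. At D8 it fell by 1.49 on the log2 scale relative to D0 (SE 0.40, adjusted p = 0.0413, edgeR), and 2 of 6 tested genes were called, Lhx2 and Emx2, both lower, against 7.15% of all tested genes, 4.1% higher and 3.05% lower. The D8 call did not hold when any 1 library of D8 or D0 was left out, with adjusted p between 0.0747 and 0.24. The changes at D4 (-0.87, SE 0.40, adjusted p = 0.231) and at D12 (-1.21, SE 0.40, adjusted p = 0.0737) did not pass the same edgeR test. At D12 the adjusted p was 0.019 without D12 replicate 1, the D12 library with the most Lhx2. Between ciNSLCs and the controls the Lhx2 difference was 0.32 (SE 0.42, adjusted p = 0.838, edgeR), smaller than the difference between the controls themselves: the level in SCR029 was 0.501 times that in priNPC (counting interval 0.461 to 0.545). Counting intervals are 95% intervals that cover counting error only. An antisense gene within the Lhx2 locus, Gm13584, had 0 to 3 counts per library.

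**Figure D2:**
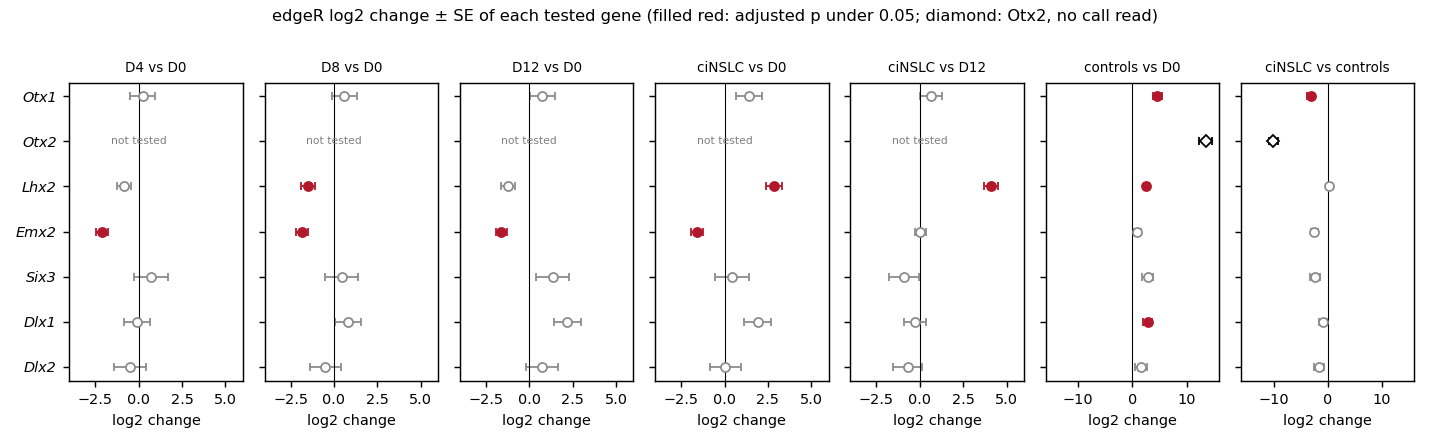
Log2 changes ± SE (horizontal axes) of the 7 genes tested in at least 1 fit (vertical axis), 1 panel per comparison, with wider axes in the panels with controls. Otx2, a diamond, is drawn without a call. Filled red points have an adjusted p under 0.05 in edgeR: Emx2 lies left of 0 in the 4 comparisons of D4, D8, D12 and ciNSLCs with D0, and Lhx2 reaches 4.08 in ciNSLCs against D12.

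The Otx genes encode bicoid-class homeodomain factors, Otx2 acting early in the anterior neural plate and Otx1 later in cortex. Otx2 (ENSMUSG00000021848, mm9 chr14:49277354-49287319, minus strand) had 2, 0 and 1 counts in the ciNSLC libraries, against 1480 counts in SCR029 and 1352 in priNPC. On the CPM scale these are 0.0465, 0 and 0.0339 CPM in ciNSLCs, against 42.0 and 32.3 CPM in the controls. Along the time course there were no counts at D0, 1, 0 and 0 counts at D4, 1, 1 and 2 at D8, and 0, 2 and 0 at D12. No library of the time course or of ciNSLCs held more than 2 counts, so these values are under the floor of 3 counts that a count of 0 allows.

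The summed Otx2 level of the controls was 1163 times that of ciNSLCs, with a counting interval of 398 to 5645. It was at least 1057-fold higher than in D0, taking 3 counts over the group as the D0 floor. The groups did not overlap: the lower control, priNPC, had 1352 counts and no other group had a library with more than 2.

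Otx1 (ENSMUSG00000005917, mm9 chr11:21894767-21902900, minus strand) had 1.18, 1.56 and 3.99 CPM in ciNSLCs, against 18.5 in SCR029 and 21.5 in priNPC. At D0 it had 0.958 and 0.730 CPM, at D4 1.957, 0.609 and 0.431, at D8 1.64, 0.585 and 1.65, and at D12 0.905, 1.79 and 1.61. Both controls were above all other libraries, the time points overlapped each other, and 1 ciNSLC library was above them all. Otx1 was lower in ciNSLCs than in the controls, with a log2 change of -3.16 (SE 0.67, adjusted p = 0.0332, edgeR). It was the 1 gene called of 6 tested between ciNSLCs and the controls with Otx2 set aside, against 1.53% of all tested genes, 0.879% higher and 0.652% lower. The call was lost without ciNSLC replicate 1 (adjusted p = 0.121) or replicate 2 (0.132), and with priNPC alone (0.0517) or SCR029 alone (0.0637) as control. Within batch 1, against SCR029, the log2 ratio of Otx1 levels was -3.91, and within batch 2, against priNPC, it was -2.93. Between ciNSLCs and D0 the Otx1 difference was 1.41 (SE 0.76, adjusted p = 0.197, edgeR).

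With Otx2 set aside, 3 of 6 tested genes were called between the controls and D0, all higher in the controls, where 23.9% of all tested genes were called, 10.1% higher and 13.8% lower. They were Otx1 (4.56, SE 0.83, adjusted p = 0.00141), Lhx2 and Dlx1, by the same edgeR test. Otx1 was not called between any time point and D0.

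The Emx genes encode dorsal telencephalic factors, and Emx2 also acts in the urogenital system. Emx2 (ENSMUSG00000043969, mm9 chr19:59533180-59539847, plus strand) had 3.09, 3.16 and 4.06 CPM in ciNSLCs, 3.47 in SCR029 and 34.8 in priNPC. At D0 it had 11.2 and 9.43 CPM, at D4 1.73, 2.68 and 2.66, at D8 1.82, 3.57 and 3.11, and at D12 3.69, 3.02 and 3.43. Both D0 libraries were above every D4, D8, D12 and ciNSLC library, and SCR029 lay within the ciNSLC range.

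Emx2 fell relative to D0 at each time, by 2.13 at D4 (SE 0.34, adjusted p = 0.00247), by 1.86 at D8 (SE 0.34, adjusted p = 0.00624) and by 1.61 at D12 (SE 0.34, adjusted p = 0.0101), all on the log2 scale with edgeR. At D4 and at D12 it was the 1 gene called of 6 tested, lower both times. The background at D4 was 7.22% called, 3.54% higher and 3.68% lower, and at D12 it was 10.5%, 5.81% higher and 4.73% lower. The D12 call was lost without D0 replicate 1 (adjusted p = 0.0638). In ciNSLCs Emx2 fell by 1.59 relative to D0 (SE 0.34, adjusted p = 0.00342, edgeR), and its difference from D12 was 0.02 (SE 0.31, adjusted p = 0.965). The log2 ratio between ciNSLCs and D0 was -1.85 within batch 1 and -1.37 within batch 2.

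The controls differed from each other in Emx2, with the SCR029 level 0.0997 times that of priNPC (counting interval 0.0822 to 0.12). Relative to D0, Emx2 was lower in SCR029 alone (-1.59, adjusted p = 0.0414) and higher in priNPC alone (1.78, adjusted p = 0.00982), in edgeR fits that use 1 control and assume that the lone library varies like the other groups. The pooled difference of 0.89 (SE 0.68, adjusted p = 0.397, edgeR) therefore describes neither control. Between ciNSLCs and the pooled controls the difference was -2.47 (SE 0.62, adjusted p = 0.0657, edgeR). This comparison was called with batch as a term (-2.33, adjusted p = 0.0423, edgeR) and by the DESeq2 Wald test (-2.47, adjusted p = 0.00464). In edgeR, with priNPC alone it was called (-3.35, adjusted p = 0.000496), and with SCR029 alone it was -0.0083.

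Emx2os, transcribed in the opposite direction from a start 55 bases away from Emx2, had a similar order of levels. It had 10.3 CPM in priNPC, 6.71 and 4.74 at D0, and 1.47 to 4.45 CPM in the other 13 libraries. The kit is not stated to mark strand, so reads near the shared start cannot be assigned to a strand. Emx1 (ENSMUSG00000033726, mm9 chr6:85137432-85154456, plus strand), a cortical progenitor gene, had a single count in priNPC and none in the other 15 libraries. Its level in SCR029 was not detectable at this depth, where the floor of 3 counts is 0.0852 CPM. Emx1 thus did not mark either cortical control. Of other cortical genes, Pax6 was present (14.4 CPM in SCR029 and 21 in priNPC), while Tbr1, a marker of deep-layer neurons, had 0.312 and 0.167 CPM.

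**Figure D3:**
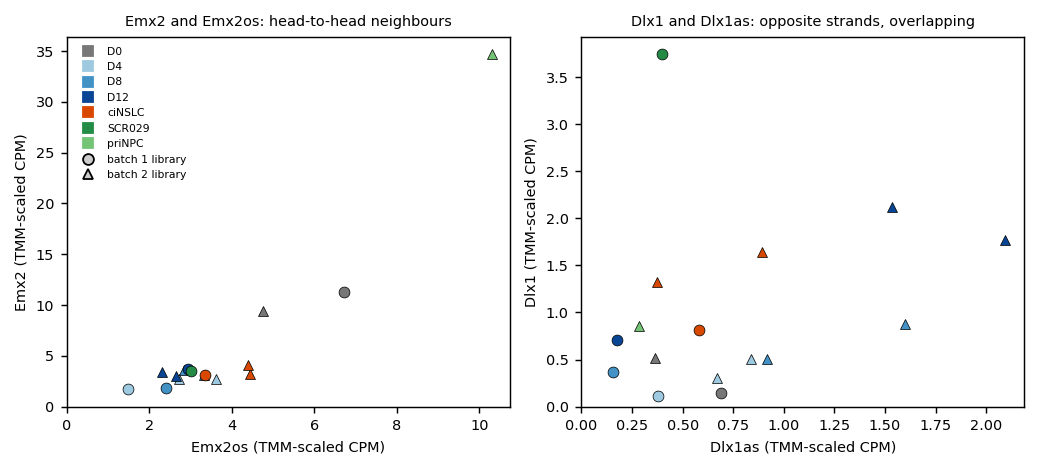
Emx2 against Emx2os (left) and Dlx1 against Dlx1as (right), in TMM-scaled CPM per library. Colours give the group, circles batch 1 and triangles batch 2: the priNPC library lies farthest out for the Emx2 pair at 10.3 and 34.8 CPM, while SCR029 has the highest Dlx1 at 3.75 CPM with 0.398 CPM of Dlx1as.

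Dlx1 and Dlx2 are adjacent, convergently transcribed genes of the ventral telencephalon. Dlx1 (ENSMUSG00000041911, mm9 chr2:71366170-71372038, plus strand) had 0.813, 1.65 and 1.32 CPM in ciNSLCs, 3.75 in SCR029 and 0.859 in priNPC. At D0 it had 0.146 and 0.521 CPM, at D4 0.113, 0.305 and 0.507, at D8 0.371, 0.507 and 0.880, and at D12 0.704, 1.77 and 2.12. All D12 and ciNSLC libraries were above both D0 libraries, and D4 overlapped D0.

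Dlx1 was higher in the controls than in D0 by 2.79 (SE 0.91, adjusted p = 0.0381, edgeR), a call that was lost without D0 replicate 1 (adjusted p = 0.221) or 2 (0.0508) and with priNPC as the single control (0.352). The Dlx1 level in SCR029 was 4.37 times that in priNPC (counting interval 3 to 6.5). The Dlx1 change was 2.20 at D12 (SE 0.77, adjusted p = 0.0935) and 1.92 in ciNSLCs (SE 0.77, adjusted p = 0.0839) relative to D0, neither called by edgeR. With batch as a term, edgeR called both (adjusted p = 0.014 at D12 and 0.00944 in ciNSLCs). The antisense gene Dlx1as overlaps the whole of Dlx1 and had 0.154 to 2.09 CPM, at D12 0.176, 2.09 and 1.53. Where exons of Dlx1as and Dlx1 overlap, their reads cannot be told apart without strand. The overlap of exons was not examined, so the Dlx1 values are uncertain by an amount that was not tested.

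Dlx2 (ENSMUSG00000023391, mm9 chr2:71381466-71384811, minus strand) had 0.325, 0.311 and 1.35 CPM in ciNSLCs, 3.49 in SCR029 and 0.501 in priNPC. Along the time course it had 0.708 and 0.573 CPM at D0, 0.753, 0.548 and 0.0761 at D4, 0.772, 0.332 and 0.271 at D8, and 1.99, 0.706 and 0.560 at D12. SCR029 was above all others, every other library lay within the range of the D4 to D12 libraries, and no Dlx2 comparison was called. The SCR029 level was 6.97 times that of priNPC (counting interval 4.37 to 11.7). Beside the Dlx genes, 5 markers of GABAergic neurons summed to 0.349 to 0.880 CPM in ciNSLCs, 2.02 in SCR029 and 1.79 in priNPC. The sum was 0.0625 to 0.860 in D0, 0.913 to 1.08 at D4, 0.925 to 3.15 at D8 and 1.25 to 2.19 at D12. Slc32a1, the vesicular GABA transporter, had no count in ciNSLCs, the controls or D0.

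Six3 (ENSMUSG00000038805, mm9 chr17:86012948-86031153, plus strand), a repressor of Wnt signals in the anterior neural plate, had 143 counts over all libraries. It had 0.0232, 0.133 and 0.271 CPM in ciNSLCs, against 0.767 in SCR029 and 0.692 in priNPC. D0 had 0.146 and 0.0521 CPM, and the 9 libraries of D4 to D12 had 0.0406 to 0.341. The controls were above all others, yet the difference between controls and D0 was not called (2.82, SE 0.99, adjusted p = 0.0527, edgeR), nor was that between ciNSLCs and controls (-2.37, SE 0.86, adjusted p = 0.213, edgeR). With batch as a term the first of these was called (adjusted p = 0.0442). The overlapping antisense gene Six3os1 had 0 or 1 count per library. The 6 eye field and retina markers summed to 4.03 to 7.43 CPM in ciNSLCs, against 2.39 in SCR029 and 5.42 in priNPC.

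Nkx2-1 (ENSMUSG00000001496, mm9 chr12:57632922-57637895, minus strand), which also acts in lung and thyroid, had 60 counts in all and 0 to 9 per library. It had 0.0465, 0.178 and 0.203 CPM in ciNSLCs, 0.0852 in SCR029 and 0.167 in priNPC, against 0.0625 and 0.0521 in D0. No group was separated from the others at this depth. Its neighbour Nkx2-9, 74481 bases away, had 3.61, 0.345 and 0.482 CPM at D4 and 2.44, 5.22 and 5.28 at D12, against 0 and 0.0521 in D0, and at most 0.0677 CPM in ciNSLCs and controls.

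Levels of different genes were compared per kilobase of summed exon length. In ciNSLCs Lhx2 led with 9.75 CPM per kb, followed by Emx2 (1.28), Otx1 (0.414), Dlx1 (0.234) and Dlx2 (0.233). In SCR029 Otx2 led with 12.4 CPM per kb, before Lhx2 (5.23), Otx1 (3.41), Emx2 (1.29) and Dlx2 (1.22). In priNPC Emx2 led with 13 CPM per kb, before Lhx2 (10.4), Otx2 (9.49) and Otx1 (3.97). The 3 neural cell sources thus each had a different leading gene of the 9, and Emx2 led in D0 with 3.85 CPM per kb.

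**Figure D4:**
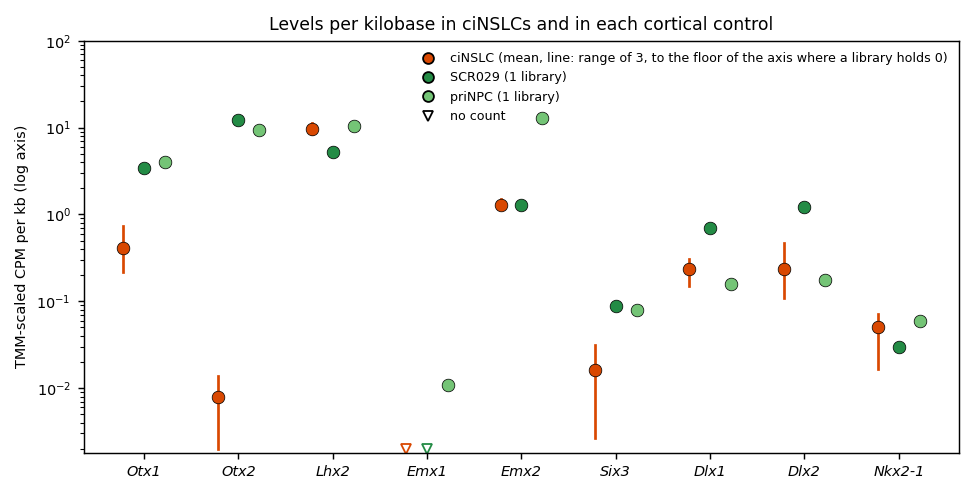
TMM-scaled CPM per kilobase of exon (vertical log axis) of the 9 genes in ciNSLCs (mean, with the range of 3 libraries as a line), SCR029 and priNPC (1 library each). The Otx2 mean is 0.00788 in ciNSLCs, against 12.4 in SCR029 and 9.49 in priNPC. The Lhx2 mean is 9.75 in ciNSLCs, against 5.23 in SCR029 and 10.4 in priNPC.

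Over groups, the order of Otx1 was priNPC, SCR029, ciNSLC, D12, D8, D4 and D0, and from ciNSLC on each neighbour overlapped the next. Lhx2 ran priNPC, ciNSLC, SCR029, D0, D4, D12 and D8, where priNPC lay within the ciNSLC range and D12 overlapped D4 and D8. Emx2 ran priNPC, D0, SCR029, ciNSLC, D12, D8 and D4, with overlap from SCR029 on, and the group next after D0 was D12 in plain CPM and ciNSLC in the authors' normalized CPM. SCR029 was first for Otx2, Six3, Dlx1 and Dlx2, but priNPC was first for Otx2 and Six3 in plain CPM, and for Six3 also in the authors' normalized CPM.

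Other regional transcription factors of the forebrain, a list of 25 genes of which 15 were tested, gave 4 genes higher and 1 lower at D4, 5 and 2 at D8, and 5 and 3 at D12, each against D0. Of all tested genes 7.22% were called at D4, 7.15% at D8 and 10.5% at D12. In ciNSLCs 3 genes of the list were higher and 6 lower than in D0, and 2 higher and 6 lower than in D12, against 28.2% and 27.5% of all tested genes. The median log2 change of the list was 1.86 at D12 against D0, and -0.44 in ciNSLCs against D12, while the medians over all tested genes were 0.01 and -0.09. Between ciNSLCs and controls Nr2f2, a nuclear receptor, was higher (2.32, SE 0.45, adjusted p = 0.0213, edgeR). That call was lost without ciNSLC replicate 2 (adjusted p = 0.0647) and with priNPC as the single control (0.114).

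Pax6, a paired-box factor of dorsal progenitors, was high in ciNSLCs like Lhx2. It averaged 14.9 ± 5.14 CPM there, against 0.0990 ± 0.0662 in D0 (SD, n = 3 and n = 2), and 14.4 and 21 CPM in SCR029 and priNPC. The difference between ciNSLCs and D0 was 7.15 (SE 0.74, adjusted p = 2.03e-05, edgeR). Unlike Lhx2, Pax6 was higher than D0 already at D4 (2.43, SE 0.66, adjusted p = 0.0431, edgeR), a call kept in 5 of 10 alternatives. At D8 its change was 4.77 (SE 0.68, adjusted p = 0.00144, edgeR). At D12 its change was 5.06 (SE 0.69, adjusted p = 0.000898, edgeR). Dlx5, of the same family as Dlx1, fell by 8.77 in ciNSLCs relative to D0 (SE 0.82, adjusted p = 9.93e-06, edgeR) and by 4.06 at D12 (SE 0.58, adjusted p = 0.00128, edgeR). Lhx9, a LIM-homeodomain relative of Lhx2, fell by 10.60 in ciNSLCs relative to D0 (SE 0.86, adjusted p = 3.79e-06, edgeR), while Isl1 was higher at D12 than in D0 (3.17, SE 0.58, adjusted p = 0.00479, edgeR). Nr2f2 averaged 25.4 ± 6.22 CPM in ciNSLCs, against 4.03 in SCR029 and 6.13 in priNPC, while its D12 mean was 92.0 ± 21.6 CPM (SD, n = 3 each).

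**Figure D5:**
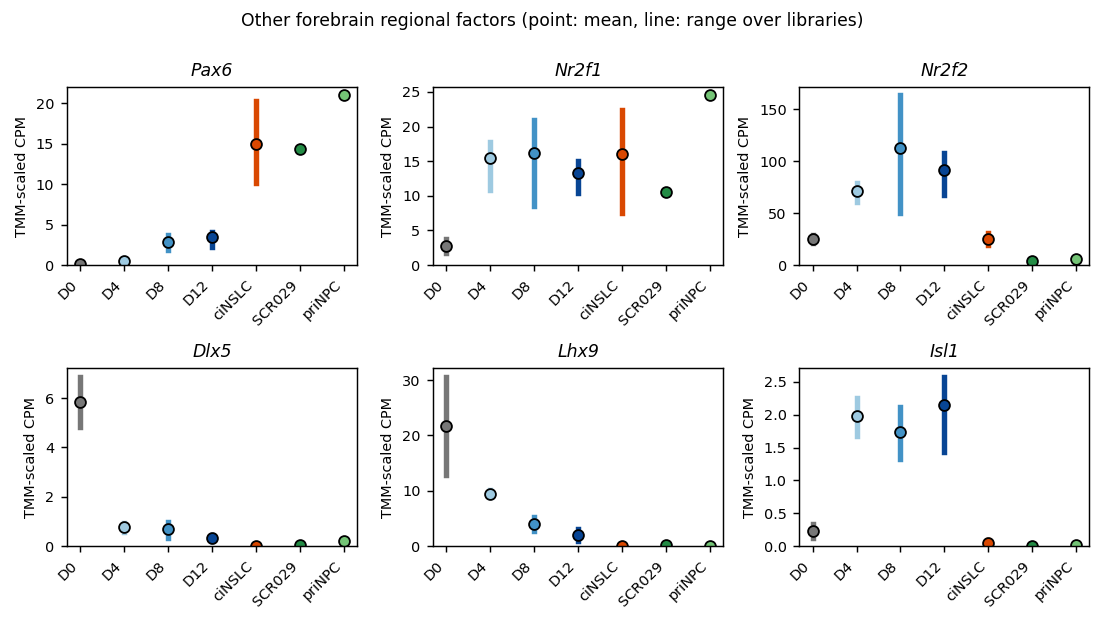
TMM-scaled CPM (vertical axes, linear from 0) of 6 other forebrain factors by group, points giving the mean and lines the range over libraries. Pax6 lies at 10.1 to 20.3 CPM in ciNSLCs, against 0.0521 to 0.146 in D0, while Lhx9 is at 0 to 0.0445 CPM in ciNSLCs, against 12.8 to 30.6 in D0.

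Of 20 factors of the midbrain, hindbrain and ventral neural tube, 14 were tested. In ciNSLCs 5 were higher and 5 lower than in D0, where 11.7% of all tested genes were called higher and 16.5% lower. Nkx2-2, Nkx6-2 and En2, among those higher, passed the filter on low counts only through ciNSLCs and so had to be higher there. The count of genes higher is therefore a description. Those higher included Gbx2, an anterior hindbrain gene (6.28, SE 0.91, adjusted p = 0.000251), and Nkx2-2, a ventral gene with 11.9 ± 0.821 CPM in ciNSLCs (SD, n = 3), 10.5 in SCR029 and 9.95 in priNPC and no count in D0. En2, a midbrain-hindbrain gene, had 0.949 ± 0.770 CPM in ciNSLCs (SD, n = 3), 5.06 in SCR029 and 2.34 in priNPC. Lmx1b was the 1 gene of this list called between ciNSLCs and controls (-7.40, SE 1.63, adjusted p = 0.0406, edgeR), with 0.00774 ± 0.0134 CPM in ciNSLCs (SD, n = 3), 4.49 in SCR029 and 0.0477 in priNPC. That call was lost with priNPC as the single control (adjusted p = 0.694) and without any 1 ciNSLC library (0.109 to 0.143). Of 21 other mesenchymal and neural crest homeobox genes, 14 were tested in the 14-library fit and none was higher in any comparison. In ciNSLCs 10 were lower than in D0 and 9 lower than in D12, against 16.5% of all tested genes called lower in each comparison, among them Meox1 (-6.73 against D0, SE 0.53, adjusted p = 2.91e-06) and Pitx1 (-6.94, SE 0.85, adjusted p = 6.95e-05), by edgeR. Against D0, 2 were lower at D4, 2 at D8 and 3 at D12, where 3.68%, 3.05% and 4.73% of all tested genes were called lower. Against the controls 1 was lower in ciNSLCs, where 0.652% of all tested genes were called lower. It was Barx1 (-5.62, SE 1.24, adjusted p = 0.0406, edgeR), a call lost without any 1 ciNSLC library (0.104 to 0.136) or with priNPC as the single control (0.281).

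For each of the 7 genes tested, the genes with the most similar levels were taken by Pearson correlation of log2(CPM + 0.5) over the 16 libraries among 14326 genes, a description over libraries that share groups and batches. The closest to Lhx2 were Phka1 (r = 0.980), Ttll7 (0.975) and Cnp (0.972). Cnp, a myelin-associated phosphodiesterase, had 67.6 CPM in ciNSLCs, 55.2 in SCR029 and 92.7 in priNPC, against 11.5 in D0. Among the closest to Otx2 were Myh7 (0.954) and Nr2e1 (0.937), and among the closest to Otx1 were Cnpy1 (0.957) and Aifm3 (0.952). Nr2e1, the neural stem cell receptor Tlx, had 0.968 CPM in ciNSLCs, against 19.7 in SCR029 and 26.7 in priNPC.

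The closest to Emx2 were BB557941 (0.941), Emx2os (0.897) and Ddx4 (0.887). For Six3 they were Cnpy1 (0.854), Otx1 (0.848) and Otx2 (0.843), for Dlx1 Enox (0.934), Kdm5a (0.875) and C1ql1 (0.863), and for Dlx2 Ddx18 (0.868), Cbx8 (0.856) and Hist1h2af (0.854). The values for Six3 and Dlx2 rest on few counts, 143 and 493 over all libraries.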

How the data were processed

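RNA was amplified with a kit that primes with random and poly-T primers (Ovation RNA-seq system V2), and sequenced in pairs, per the labels' protocols. The authors' table holds, per the file headers, non-normalized read counts per gene, which entered every fit. Submitters' processing notes name TopHat2 2.0.13, mm9, featureCounts, Subread and edgeR. The deposited CPM is the count over the library total (within 0.005), and the deposited FPKM is that CPM per kilobase (within 0.02 for 98.48% of values). The authors also deposited a normalized CPM (another unit, since low genes carry a text mark) for 20055 genes, used for the order of levels, and a feature length in bases (another unit), used for levels per kilobase.

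The 415 genes without a symbol took at most 0.151% of counts. They entered the fits and were left out only of the search for genes with similar levels. Tests used edgeR 4.0.16 in R 4.3.3: the default filter on low counts, TMM scaling and robust quasi-likelihood fits on group alone, to 14 libraries (17455 genes) or, for comparisons with controls, 16 (17636 genes), with Benjamini-Hochberg adjustment over all genes, after a check of the fit on simulated counts. Library totals of 29.4 to 55.5 M counts put the floor of 3 counts at 0.0541 to 0.102 CPM before TMM scaling. Single control libraries carry 95% counting intervals, which cover counting error only. Alternatives were DESeq2 1.42.0, its size factors, no filter, a batch term, a replicate block, each control alone and each library left out.

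All 9 genes are named. From each list, up to 4 called genes per direction with the smallest p may be named, together with their levels, and up to 3 genes of most similar pattern per gene. Tbr1 and Slc32a1 were named for their levels after these were seen. The genes and lists were chosen with earlier results of these data known. Upstream windows come from RefSeq (GRCm38.p6), and mm9 coordinates come from the authors' table. No window was listed for Otx1. Some genes of the lists are not reported here.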

Additional observations from a re-analysis of the deposited data

Results flagged for a closer look

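The SCR029 and priNPC libraries lay on opposite sides of both D0 libraries for 2 genes. Emx2 had 3.47 CPM in SCR029 and 34.8 in priNPC, against 11.2 and 9.43 CPM in D0. Dlx2 had 3.49 CPM in SCR029 and 0.501 in priNPC, against 0.708 and 0.573 CPM in D0, where the priNPC value rests on 21 counts. Each control has 1 library, SCR029 is in batch 1 and priNPC in batch 2, and they differ in strain background and embryonic stage, so source, stage, background and batch cannot be told apart. The difference between the controls was not tested.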

How the results depend on the processing

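The 1 gene called at D4 against D0 and the 1 called between ciNSLCs and D12 stood in all alternatives run. Between ciNSLCs and D0 the count of 2 called genes became 3 with the DESeq2 Wald test, the batch term or the replicate block, each adding Dlx1. Between D8 and D0 the count of 2 was 1 whenever a library was left out. Between D12 and D0 the count of 1 was 3 with the DESeq2 Wald test, 2 with the batch term, 2 with the replicate block and 0 to 3 with 1 library left out. Between ciNSLCs and controls the count of 2 was 3 with the DESeq2 Wald test or the batch term, each adding Emx2, 1 with SCR029 only, and 1 to 2 with 1 ciNSLC library left out. The controls against D0 gave 4, and 3 to 5 under the alternatives. Both of these counts include Otx2, which passed the filter through the controls, so its call says nothing about stability. The sign of Emx2 between controls and D0 was reversed with SCR029 only (-1.59, against 0.89 with both controls). For the whole table, called genes against D0 numbered 1260 at D4, 1248 at D8 and 1840 at D12. Alternatives that kept every library gave 1058 to 2328 at D4, 1043 to 2298 at D8 and 1532 to 2935 at D12. Between ciNSLCs and D12 they numbered 4808 (3001 to 6408 under alternatives). Between controls and D0 they numbered 4222, with lower and higher counts under alternatives (at most 5455). Between ciNSLCs and controls they numbered 270 (109 to 995). Leaving out a D0 library lowered the count at D4, at D8 and for controls against D0. The cause of these shifts was not tested. The replicate numbers of the labels do not establish pairs. Same-numbered libraries correlated in their deviations from group means at -0.018 to 0.729, and different-numbered ones of 1 batch at -0.011 to 0.669. Libraries of different batches correlated at -0.65 to -0.014, values that subtracting group means itself pushes below 0. Batch was left out of the main fits. Depth limits Emx1, Nkx2-1 and Six3, and Otx2 outside the controls. The 2 control libraries are different sources, so tests against them carry the difference between sources as spread.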
